A study of Mus musculus with 6 samples.

Results

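Transcripts of mast cells, basophils and eosinophils were followed in bulk RNA sequencing of mouse BMDMs (macrophages derived in culture from bone marrow). The markers were 10 genes named by symbol (Kit, Cpa3, Mcpt8, Fcer1a, Ms4a2, Gata2, Hdc, Prss34, Prg2 and Cd200r3), of which 9 had a row among the 16519 genes of the count table; Fcer1a was not analysed here. The 3 KO libraries came from Trmt61af/fLysmCre mice and the 3 WT libraries from Trmt61af/f mice, so that both genotypes carried the floxed Trmt61a allele and KO alone carried Cre. The Cre is driven from the lysozyme 2 gene, which is active in myeloid cells, and Trmt61a encodes the catalytic subunit of a tRNA methyltransferase that makes N1-methyladenosine. Loss of Trmt61a and presence of Cre cannot be told apart in this design. The labels used here name no age, culture medium or stimulus. Nothing in them ties a replicate to a mouse or a dish of its own, so p-values here reflect library-to-library variation alone, possibly technical. Fold changes are log2 values of KO over WT, given with their standard error (SE).

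Mast cells, basophils and eosinophils are granulocytes that develop from bone marrow progenitors and store preformed mediators in granules. Mast cells and basophils carry the high-affinity IgE receptor and make histamine, while eosinophil granules hold basic proteins such as that encoded by Prg2. Their early precursors share Kit and Gata2 with other progenitors of the marrow. In bulk RNA, fewer cells of a type and less RNA per cell cannot be told apart.

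The libraries held between 37021855 and 41033179 gene counts, so that 3 counts, the limit that a count of 0 allows, correspond to between 0.0730 and 0.0813 CPM (counts scaled to library size); such limits cover counting error only. Trmt61a lay between 0.530 and 0.755 CPM in KO and between 3.89 and 5.06 CPM in WT, a log2 fold change of -2.92 ± 0.28 (SE; edgeR adjusted p = 0.00219). All 12 listed macrophage genes, Adgre1 and Csf1r among them, were detected and 0 were called, with 1 at an unadjusted p under 0.05 (edgeR; 0 called in DESeq2 and limma voom). Their summed level was between 12267 and 13923 CPM in KO and between 12476 and 13464 CPM in WT.

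Between genotypes, no marker was called. Of the 9 markers with a row, 6 passed the filter on low counts and were tested, and 0 of these 6 had an adjusted p under 0.05 or an unadjusted p under 0.05 in edgeR, where 0.0317% of the 12605 tested genes were called and 3.1% had an unadjusted p under 0.05. DESeq2 called 0 of 9 markers, with 1 at an unadjusted p under 0.05, and limma voom called 0 of 6, with 0 at an unadjusted p under 0.05. The fold change was above 0 for 2 of the 6 tested markers and below 0 for 4, and its median was -0.15, against 8.37e-05 over all tested genes. In DESeq2, which also fitted Mcpt8, Ms4a2 and Cd200r3 at their few counts, 7 of 9 markers were below 0 with a median of -0.29. The count of markers called was 0 in each direction, against 0.00793% of tested genes called higher in KO and 0.0238% called lower in KO. KO and WT values overlapped for 8 of the 9 markers, the exception being Ms4a2 at 4 counts or fewer; of all tested genes, 8.65% did not overlap. What varied was the level from library to library within each genotype, described below marker by marker.

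**Figure D1:**
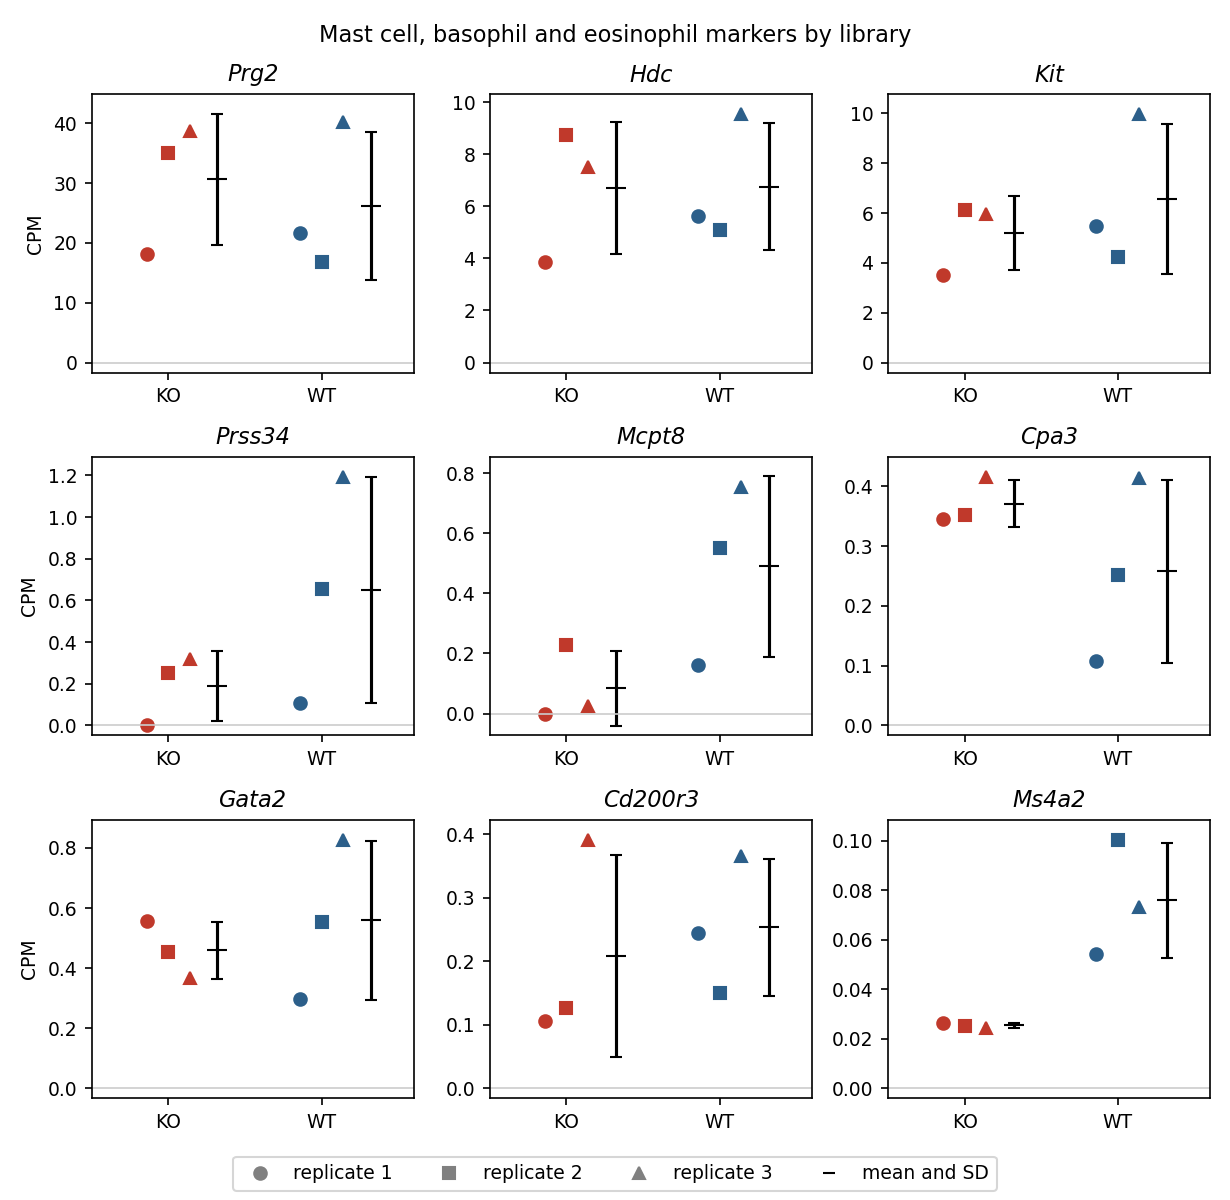
Level of each of the 9 markers in CPM (vertical axis, its own scale in each panel) in the 3 KO libraries (red, left) and the 3 WT libraries (blue, right), with the symbol giving the replicate number and the black bar the mean and SD. KO 1 is the lowest library for 5 markers and WT 3 the highest for 6, and only Ms4a2 has no overlap between genotypes.

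Promoter sequences are shown for Kit and Hdc, which had the same order of libraries from low to high, and for Prss34 and Mcpt8, the basophil proteases that both had 0 counts in KO 1 and were highest in WT 2 and WT 3. The words searched are those that GATA factors bind, since GATA2 is itself among the markers. The sequences are from RefSeq on GRCm38.p6 from 250 bases before to 50 bases after the start of a RefSeq transcript, chr5:75574737-75575036 (plus strand) for Kit, chr2:126618629-126618928 (minus strand) for Hdc, chr17:25298144-25298443 (plus strand) for Prss34 and chr14:56085148-56085447 (minus strand) for Mcpt8, written 5′ to 3′ on the gene's strand. For Hdc and Mcpt8 that transcript starts inside the range given for the gene, so these windows are not at the gene's outermost start. Capitals mark a GATA word, read on either strand. AGATAA was searched, then TGATAA, and likewise AGATAG as well as TGATAG; matches did not overlap.
Kit: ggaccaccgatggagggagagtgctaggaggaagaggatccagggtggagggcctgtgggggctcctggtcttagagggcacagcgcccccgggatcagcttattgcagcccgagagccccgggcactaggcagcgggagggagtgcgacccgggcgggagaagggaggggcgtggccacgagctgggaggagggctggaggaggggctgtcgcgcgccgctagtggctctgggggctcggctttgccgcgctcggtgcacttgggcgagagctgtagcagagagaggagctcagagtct
Hdc: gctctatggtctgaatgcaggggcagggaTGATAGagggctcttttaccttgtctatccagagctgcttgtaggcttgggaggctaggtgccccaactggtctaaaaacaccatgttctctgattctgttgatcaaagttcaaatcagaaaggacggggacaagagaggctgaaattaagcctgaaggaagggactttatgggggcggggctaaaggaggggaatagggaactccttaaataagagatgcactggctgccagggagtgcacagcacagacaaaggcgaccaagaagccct
Prss34: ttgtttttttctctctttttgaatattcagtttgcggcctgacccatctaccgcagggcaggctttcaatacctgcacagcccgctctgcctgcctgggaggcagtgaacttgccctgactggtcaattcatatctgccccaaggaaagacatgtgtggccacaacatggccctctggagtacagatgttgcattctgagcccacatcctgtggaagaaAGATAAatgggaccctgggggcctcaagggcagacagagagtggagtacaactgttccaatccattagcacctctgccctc
Mcpt8: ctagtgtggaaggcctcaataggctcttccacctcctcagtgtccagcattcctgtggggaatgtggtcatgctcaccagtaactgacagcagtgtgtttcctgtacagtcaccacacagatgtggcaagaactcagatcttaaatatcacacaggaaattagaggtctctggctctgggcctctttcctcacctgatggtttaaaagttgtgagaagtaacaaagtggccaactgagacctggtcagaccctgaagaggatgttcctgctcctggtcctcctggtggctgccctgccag
Hdc held 1 such word at position -221 from that transcript start, and Prss34 held 1 at position -31. The Kit and Mcpt8 windows held 0, as did the other Kit window of the table. Of the 8 markers with a row and a window, 5 held at least 1 word, the others being Cpa3 (position -46), Cd200r3 and Ms4a2, where 33.0% of 27025 genes hold one. In each pair 1 window held a word and the other did not; a match describes letters and is not a measured binding site.

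Kit (Entrez Gene 16590, chromosome 5, 75574987 to 75656722, mm10) encodes the receptor for stem cell factor, which mast cells keep through life and most other blood cells lose after the progenitor stage. It stood at 3.50, 6.12 and 5.97 CPM in KO 1, KO 2 and KO 3, against 5.50, 4.22 and 9.98 CPM in WT 1, WT 2 and WT 3. The lowest value was in KO 1 and the highest in WT 3. WT 2 came next above KO 1, and their 95% counting intervals overlapped (2.93 to 4.15 CPM in KO 1, 3.61 to 4.91 CPM in WT 2). KO libraries averaged 5.20 ± 1.47 CPM and WT libraries 6.57 ± 3.03 CPM (SD, n = 3 each). The log2 fold change was -0.34 ± 0.34 (SE), its 95% interval -1.13 to 0.45 (edgeR adjusted p = 0.999949). Without WT 3 the sign of the Kit difference turned, to 0.10.

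Gata2 (chromosome 6, 88193891 to 88207032) encodes a transcription factor of progenitors, mast cells and basophils. It was counted 21, 18 and 15 times in KO, or 0.557, 0.453 and 0.367 CPM, and 11, 22 and 34 times in WT, or 0.298, 0.553 and 0.828 CPM. All 3 KO values lay within the WT range. Gata2 had a log2 fold change of -0.29 with a 95% interval from -1.45 to 0.87 (edgeR adjusted p = 0.999949), and without WT 3 it was 0.10.

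Hdc (chromosome 2, 126593659 to 126624025) encodes histidine decarboxylase, the enzyme that makes histamine. It stood at 3.87, 8.74 and 7.49 CPM in the KO libraries, against 5.61, 5.10 and 9.55 CPM in the WT libraries. From low to high the order was KO 1, WT 2, WT 1, KO 3, KO 2 and WT 3, the same order as for Kit. Parts of this order lay within counting error. Kit had 243 and 244 counts in KO 2 and KO 3, and Hdc had 207 and 203 counts in WT 1 and WT 2. KO libraries averaged 6.70 ± 2.53 CPM and WT libraries 6.75 ± 2.43 CPM (SD, n = 3 each). The log2 fold change was -0.01 ± 0.35 (SE), its 95% interval -0.81 to 0.79 (edgeR adjusted p = 0.999949). This fold change was 0.26 without KO 1 and 0.33 without WT 3.

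Ms4a2 (chromosome 19, 11615517 to 11623790), which encodes the beta chain of the high-affinity IgE receptor, was close to absent. It had 1 count in each KO library and 2, 4 and 3 counts in WT 1, WT 2 and WT 3. At this depth a difference was not detectable, since the exact 95% Poisson interval of a single count reaches 5.57 counts, above every WT value, and Ms4a2 did not pass the filter on low counts. Cd200r3 (chromosome 16, 44943596 to 45058365), an activating receptor of the CD200R family found on basophils and mast cells, had 4, 5 and 16 counts in KO and 9, 6 and 15 counts in WT, and was not tested either. Its highest values were in KO 3 and WT 3, at 0.392 and 0.365 CPM, and the genotypes overlapped throughout.

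Cpa3, Mcpt8 and Prss34 encode granule proteases. Cpa3 (chromosome 3, 20215616 to 20242209), the mast cell carboxypeptidase, had 13, 14 and 17 counts in KO, or 0.345, 0.353 and 0.416 CPM, and 4, 10 and 17 counts in WT, or 0.108, 0.251 and 0.414 CPM. Its KO values were close together and its WT values ran from below them to level with the highest. Cpa3 had a log2 fold change of 0.51 with a 95% interval from -0.84 to 1.85 (edgeR adjusted p = 0.999949), and it ranged from 0.16 without WT 1 to 1.02 without WT 3 when single libraries were left out. Cpa3 reached the filter's level of 0.252 CPM in 3 KO libraries and 1 WT library.

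Mcpt8 (chromosome 14, 56082163 to 56085499) encodes a serine protease of mouse basophils. It had 0, 9 and 1 counts in KO 1, KO 2 and KO 3, against 6, 22 and 31 counts in WT 1, WT 2 and WT 3. KO 2 lay above WT 1, so the genotypes overlapped, while the 2 highest values were both WT. Mcpt8 did not pass the filter; with no filter its log2 fold change was -2.50 with a 95% interval from -4.69 to -0.31 and an unadjusted p of 0.0278, which did not hold after adjustment over 16519 genes (edgeR adjusted p = 0.999965). DESeq2 gave -2.55 ± 1.11 (SE; adjusted p = 0.999902).

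Prss34 (chromosome 17, 25298394 to 25300168), another serine protease of mouse basophils and mast cells, was counted 0, 10 and 13 times in KO and 4, 26 and 49 times in WT. In CPM these were 0, 0.252 and 0.318 in KO, against 0.108, 0.653 and 1.19 in WT. As for Mcpt8, KO 1 was lowest and WT 2 and WT 3 were highest. The log2 fold change was -1.75 ± 0.99 (SE), its 95% interval -3.99 to 0.48 (edgeR adjusted p = 0.999949), and it was -0.99 without WT 3, -1.19 without KO 1 and -0.43 without both. Counted together, Mcpt8 and Prss34 gave 0, 19 and 14 counts in KO 1, KO 2 and KO 3, and 10, 48 and 80 counts in WT 1, WT 2 and WT 3. Per 100 Kit counts these sums were 0, 7.82 and 5.74 in KO and 4.93, 28.6 and 19.5 in WT, so that WT 2, low for Kit, was the highest library for the proteases relative to Kit; this sum was chosen after its values were seen.

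Prg2 (chromosome 2, 84980461 to 84983632) encodes the major basic protein of eosinophil granules. It stood at 18.1, 35.1 and 38.6 CPM in KO 1, KO 2 and KO 3, against 21.6, 16.8 and 40.2 CPM in WT 1, WT 2 and WT 3. Each genotype had both low and high libraries, KO 1 and WT 2 being lowest. KO libraries averaged 30.6 ± 10.9 CPM and WT libraries 26.2 ± 12.4 CPM (SD, n = 3 each). The log2 fold change was 0.22 ± 0.45 (SE), its 95% interval -0.94 to 1.39 (edgeR adjusted p = 0.999949). It was -0.02 without WT 2 and 0.68 without WT 3. With KO 1 and WT 3 both left out it was 0.94 and passed (edgeR adjusted p = 0.000916), but those libraries were picked because they stood lowest and highest for these markers, so their removal raises KO and lowers WT by its construction.

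Per kilobase of exon, Prg2 was the most abundant marker, at 131 ± 47.1 TPM (scaled to exon length and library size) in KO and 111 ± 52.2 TPM in WT (SD, n = 3), above 91.8% of the 16001 genes with an exon length. Hdc followed at 3.77 ± 1.42 TPM in KO and 3.76 ± 1.34 TPM in WT, and Kit at 2.10 ± 0.593 TPM in KO and 2.62 ± 1.20 TPM in WT (SD, n = 3). The ranges of Hdc and Kit overlapped, although Hdc was above Kit in each of the 6 libraries. Prss34 was at 0.561 ± 0.496 TPM in KO and 1.90 ± 1.58 TPM in WT, and Mcpt8 at 0.301 ± 0.447 TPM in KO and 1.75 ± 1.07 TPM in WT (SD, n = 3). Prss34, Mcpt8 and Cpa3, at 0.881 ± 0.0953 TPM in KO and 0.605 ± 0.358 TPM in WT (SD, n = 3), overlapped one another. Gata2 had a mean of 0.338 TPM over the 6 libraries, Cd200r3 0.138 TPM and Ms4a2 0.0643 TPM.

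The deposited annotation gives the markers few shared terms. Proteolysis was assigned to Cpa3, Mcpt8 and Prss34 and to 2.37% of all genes, and the external side of the plasma membrane to Kit, Ms4a2 and Cd200r3 and to 2.15% of all genes. None of the 9 shares exon sequence with another gene in the GENCODE M21 annotation.

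Summed over the 9 markers, the level was 26.5, 51.3 and 53.6 CPM in KO 1, KO 2 and KO 3, and 33.7, 28.3 and 63.4 CPM in WT 1, WT 2 and WT 3. KO 1 stood apart from KO 2 and KO 3, and WT 3 from WT 1 and WT 2. The share of this sum due to Prg2 was between 68.3% and 72.0% in KO and between 59.1% and 64.1% in WT. Without Prg2, Hdc and Kit, the remaining 6 markers summed to 1.03, 1.44 and 1.54 CPM in KO and to 0.976, 2.26 and 3.63 CPM in WT.

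The spread between libraries of a genotype was wider for these markers than for most genes. The highest library exceeded the lowest by 1.75 times in KO and 2.37 times in WT for Kit, by 2.26 and 1.87 times for Hdc, and by 2.13 and 2.40 times for Prg2. Over all tested genes the median of this ratio was 1.18 in KO and 1.17 in WT, and 10.1% of genes in KO and 9.85% in WT exceeded 2. The biological coefficient of variation (BCV), the relative spread between libraries of a genotype beyond counting error, was 0.280 for Kit, 0.274 for Hdc and 0.282 for Prg2, against 0.181, 0.171 and 0.0943 on the trend at the same abundance. Prss34 had a BCV of 0.732 against 0.376 on the trend, above 99.8% of tested genes. Cpa3 and Gata2 lay slightly under the trend, at 0.353 against 0.384 and at 0.345 against 0.371, so that their spread was like that of other genes counted this rarely. Without KO 1 and WT 3 the BCV was 0.141 for Kit, 0.125 for Hdc, 0.0849 for Prg2 and 0.421 for Prss34; those libraries were picked for standing lowest and highest for these markers, so leaving them out lowers the spread by its construction.

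**Figure D2:**
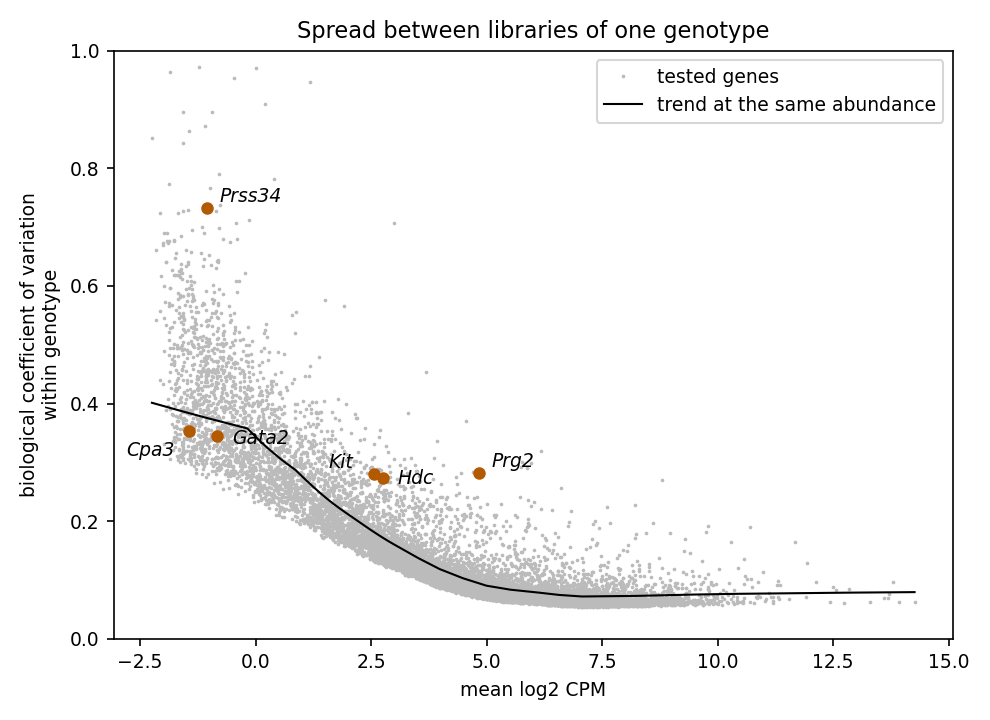
Biological coefficient of variation within genotype (vertical axis) against mean log2 CPM (horizontal axis) for the 12605 tested genes (grey), with the trend (line) and the 6 tested markers (orange); 3 genes lie above the axis. Prg2, Kit, Hdc and Prss34 lie above the trend, and Cpa3 and Gata2 just below it.

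Across the 9 markers, KO 1 was the lowest library for 5 and WT 3 the highest for 6. Of all tested genes, KO 1 was lowest for 18.7% and WT 3 highest for 16.9%. As log2 deviations from the 6-library mean, the 6 tested markers averaged -0.69, 0.18 and 0.20 in KO 1, KO 2 and KO 3, and -0.53, -0.03 and 0.86 in WT 1, WT 2 and WT 3. Prss34, at 0 counts in KO 1 and 49 in WT 3, lay farthest out there (-2.58 and 2.03). In WT 1, Kit, Hdc and Prg2 (-0.02, -0.19 and -0.30) were nearer 0 than the average. The 6 tested markers did not all follow one order. Kit, Hdc and Prg2 were low in WT 2 (-0.40, -0.33 and -0.67), where Prss34 was high (1.21). Cpa3 and Gata2 were lowest in WT 1 (-1.11 and -0.62) and were above their mean in KO 1 (0.20 and 0.18), each on 4 to 34 counts per library.

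**Figure D3:**
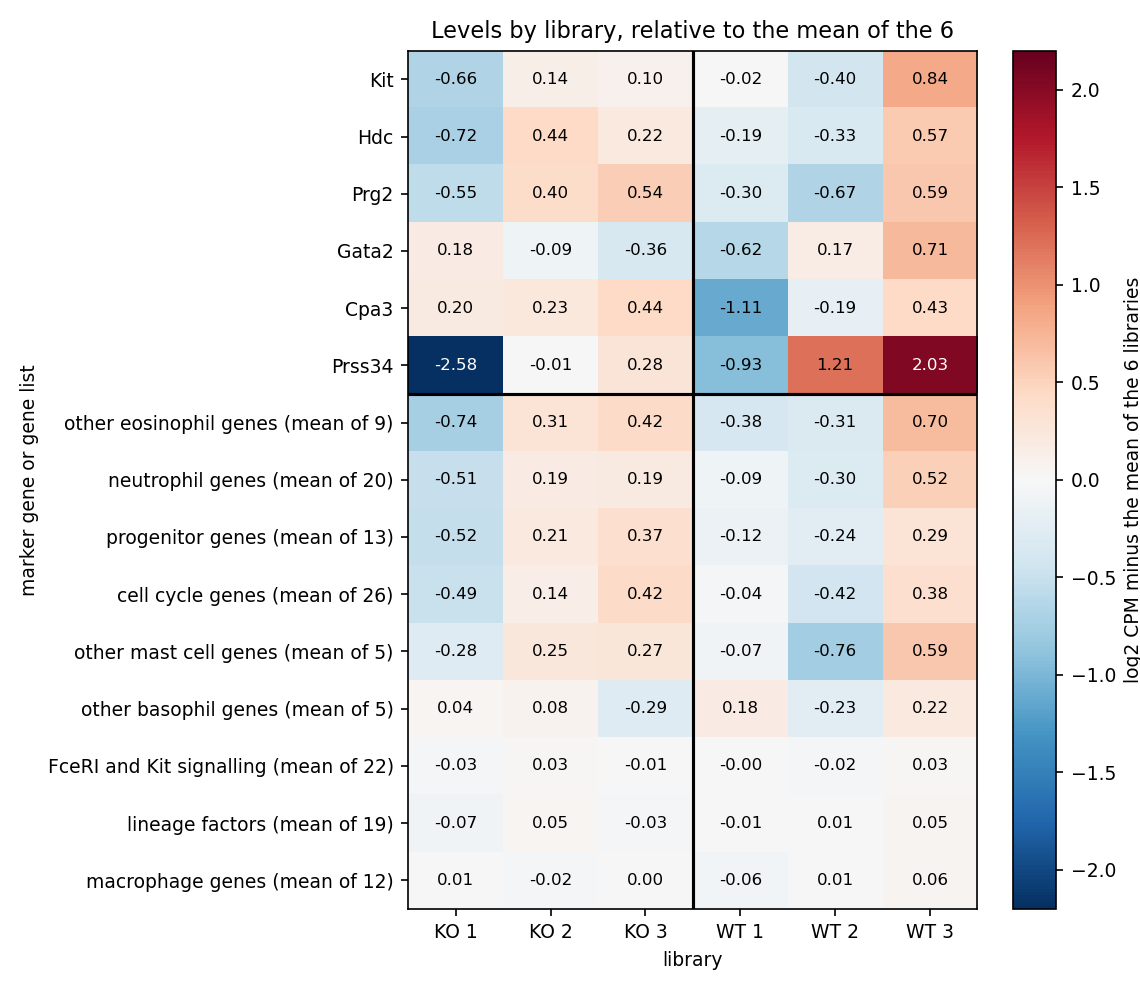
Deviation of log2 CPM from the 6-library mean (colour and printed value) for the 6 tested markers (rows above the line) and for the mean of the tested genes in 9 other lists (rows below it), by library, KO left of WT. Kit, Hdc, Prg2 and the mast cell, eosinophil, neutrophil, progenitor and cell cycle lists are low in KO 1 and high in WT 3. The means of the macrophage and signalling lists stay within 0.1 of 0.

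The means of the neutrophil, progenitor and cell cycle lists moved with Kit, Hdc and Prg2 from library to library. Their part in the spread was not tested. Not all lists and genes moved so. As log2 deviations, the mean of 5 dendritic cell genes was highest in WT 2 (0.35) and lowest in WT 3 (-0.17). That of 8 stromal genes was low in KO 1 (-0.49) but was -0.10 in WT 3. Csf3r of the neutrophil list lay between 254 and 262 CPM in KO and between 267 and 298 CPM in WT. The 20 neutrophil genes, such as Mpo and Elane of the primary granules, averaged -0.51, 0.19 and 0.19 in KO 1, KO 2 and KO 3, and -0.09, -0.30 and 0.52 in WT 1, WT 2 and WT 3 on the same scale. Their summed level ran from 2296 to 3523 CPM in KO and from 2329 to 3998 CPM in WT, and 0 of the 20 were at 0 counts throughout. The 13 tested progenitor genes averaged between -0.52 (KO 1) and 0.37 (KO 3) and the 26 cell cycle genes between -0.49 (KO 1) and 0.42 (KO 3), with summed levels of 40.3 to 65.2 CPM and 799 to 1300 CPM in KO against 46.2 to 70.9 CPM and 763 to 1261 CPM in WT. In the neutrophil, progenitor and cell cycle lists edgeR called 0 genes between genotypes, with 0, 1 and 0 at an unadjusted p under 0.05, and DESeq2 and limma voom called 0. The mean of the 12 macrophage genes stayed between -0.06 and 0.06. Single genes of that list moved more, and opposite shifts can cancel in the mean. Csf1r was lower in KO 3 (3930 CPM) than in KO 1 (5117 CPM), while Msr1 was higher in KO 3 (249 against 179 CPM). Library totals moved with the markers in part: WT 1 (37021855 counts) and KO 1 (37899665) were the smallest and WT 3 (41033179) the largest, while WT 2, low for Kit, Hdc and Prg2, held 39741728, close to the 39687301 of KO 2. The part of depth in the spread was not tested.

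Genes were also ranked by likeness to the average of the 6 tested markers over the 6 libraries. The measure was the smallest root mean squared difference between their log2 CPM, centred on its mean, and that average. It was taken among the 11342 genes outside the markers that averaged 1 CPM or more. Nearest were Ms4a3 (difference 0.118), Fpr1 (0.125), Myb (0.131), Siglecg (0.144) and Hells (0.160), against a median of 0.524 over those genes. Ms4a3, a membrane protein gene of granulocyte and monocyte progenitors that is also in the neutrophil list, stood at 3.42, 5.36 and 6.81 CPM in KO and 3.90, 4.77 and 9.20 CPM in WT. Myb, a transcription factor gene also in the progenitor list, stood at 3.58, 7.76 and 7.69 CPM in KO and 4.93, 5.45 and 12.5 CPM in WT. Among the markers themselves, Hdc (0.243) and Kit (0.261) lay nearest to their average and Prss34 (1.06) farthest. All 5 named genes were nearer to that average than any tested marker was, so they are like the average rather than like a single marker.

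Prg2, Hdc and Kit, the 3 most counted markers, were also set against each other within each library. There were 5.18, 5.73 and 6.47 Prg2 counts for each Kit count in KO 1, KO 2 and KO 3, against 3.92, 3.97 and 4.03 in WT 1, WT 2 and WT 3. The WT ratios differed by less than counting error, with 95% counting intervals from 3.36 to 4.57 in WT 1 and from 3.62 to 4.49 in WT 3, although the Kit level there differed by 1.81 times. The KO ratios all lay above the WT ratios, by 0.54 on the log2 scale between the means, against standard deviations of 0.16 in KO and 0.02 in WT (exact two-sided permutation p = 0.1, the smallest that 3 against 3 libraries allow; 0.2 adjusted over the 3 ratios by Benjamini-Hochberg). The ratio of Prg2 to Hdc was between 4.01 and 5.16 in KO and between 3.29 and 4.21 in WT, and that of Hdc to Kit between 1.11 and 1.43 in KO and between 0.956 and 1.21 in WT (exact permutation p = 0.2 for each, 0.2 adjusted). Neither of these 2 ratios separated the genotypes, and all 3 ratios were chosen after the counts were seen. None could pass, since the smallest exact permutation p of 0.1 lies above the threshold. The permutation test therefore cannot decide whether any of the ratios differed by genotype.

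**Figure D4:**
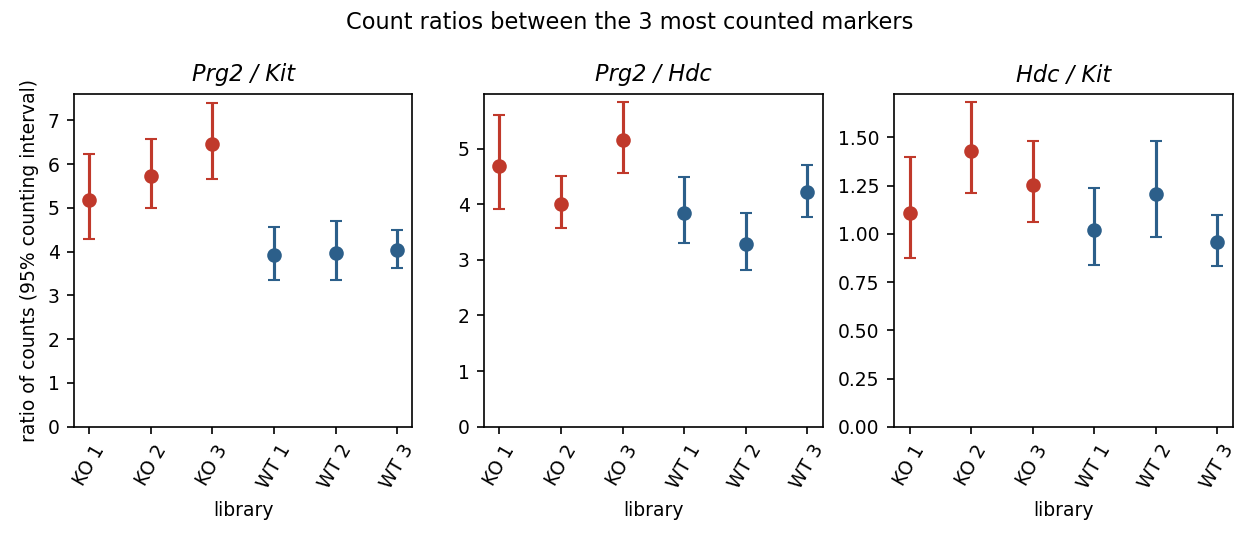
Ratio of counts (vertical axis, from 0) between Prg2, Hdc and Kit in each library, KO in red and WT in blue, with 95% intervals for counting error only. The Prg2 to Kit ratio is between 5.18 and 6.47 in KO and between 3.92 and 4.03 in WT, and the other ratios overlap.

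Other genes of these lineages were read from lists. Of 10 further eosinophil genes, 9 were tested and edgeR called 0. The fold change was above 0 for 6 and below 0 for 3, and its median was 0.21. Genes of granule proteins had values by library like those of Prg2. Epx, the eosinophil peroxidase, stood at 2.01, 6.19 and 6.10 CPM in KO and 3.12, 2.49 and 6.50 CPM in WT. Prg3, a paralog of Prg2, ran between 2.07 and 5.07 CPM in KO and between 2.06 and 4.97 CPM in WT. Both were low in KO 1, WT 1 and WT 2 and high in the other 3 libraries. Ear1, an eosinophil-associated ribonuclease whose reads may be shared with close paralogs, had a log2 fold change of 0.60 with a 95% interval from -0.95 to 2.15.

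Il5ra, a chain of the interleukin 5 receptor, was lowest in KO 1, WT 1 and WT 2, at 0.0530, 0.453 and 0.343 CPM in KO and 0.217, 0.226 and 0.365 CPM in WT. These values rest on 2, 18 and 14 counts in KO and 8, 9 and 15 counts in WT. At such counts WT 1 and WT 2 did not differ from KO 3 and WT 3 beyond counting error. Among the surface proteins of the list, Ccr3 and Siglecf had other values by library. Ccr3, the eotaxin receptor, stood at 9.94, 15.1 and 17.0 CPM in KO, against 20.9, 21.9 and 32.0 CPM in WT. Siglecf, a sialic acid binding lectin of eosinophils, stood at 1.62, 1.79 and 1.81 CPM in KO, against 2.09, 2.64 and 4.99 CPM in WT. Both were lower in every KO library than in every WT library, where 8.65% of all tested genes did not overlap between genotypes. The log2 fold change of Ccr3 was -0.83 ± 0.24 (SE), which missed the threshold (edgeR adjusted p = 0.999949). DESeq2 called Ccr3 (adjusted p = 0.0245), as did edgeR with the replicate number as a block (adjusted p = 0.0496); over 16 alternatives this p ran between 0.0245 and 0.999965. For Siglecf it was -0.90 ± 0.34 (SE; edgeR adjusted p = 0.999949) and was not called under any of its 16 alternatives.

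**Figure D5:**
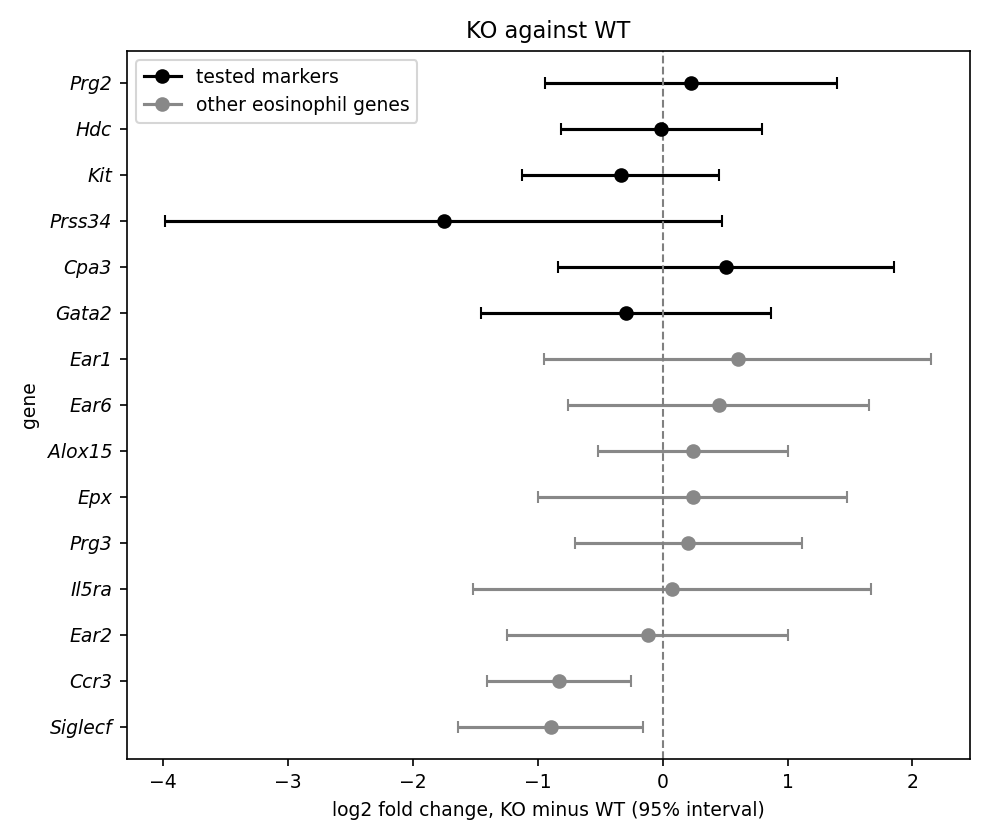
Log2 fold change, KO minus WT, with its 95% interval (horizontal axis) for the 6 tested markers (black) and 9 other eosinophil genes (grey). The intervals of all 6 markers include 0, and those of Ccr3 and Siglecf lie below 0 before adjustment for the 12605 genes tested.

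Of 17 further mast cell genes, 7 had a row and 5 were tested, with 0 called, 3 above 0 and a median of 0.03; the tryptases and most chymases of the list were not analysed here. Slc18a2, the vesicular monoamine transporter, had a log2 fold change of 0.65 (95% interval from -0.92 to 2.23), with 26, 27 and 22 counts in KO and 12, 2 and 34 in WT. Ndst2, a heparin sulfation enzyme, had -0.06 and Mitf, a transcription factor gene that macrophages also express, 0.03. Of 10 further basophil genes, 8 had a row and 5 were tested, with 0 called, 4 below 0 and a median of -0.15. Il3ra, Itga2 and Il18r1, all receptor chain genes, had -0.17, 0.46 and -0.85. The cytokine gene Il4 had 1, 5 and 6 counts in KO and 0, 0 and 1 counts in WT, too few to pass the filter.

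Signalling downstream of the IgE receptor, Kit and the interleukin 3 receptor is shared with macrophages. The mean of its 22 tested genes stayed between -0.03 and 0.03 on the centred log2 scale, although Lat and Grap2, both adaptor protein genes, had a BCV of 0.272 each. Both were less abundant than Kit, and the trend is higher at lower abundance, so their BCV cannot be set directly against that of Kit. Grap2 stood at 3.93 CPM in KO 2, against 1.86 to 2.14 CPM in the other libraries. Of the 22, 0 were called, 17 were below 0 and the median was -0.02. Kitl, the ligand of Kit, stood at 16.2, 15.7 and 15.8 CPM in KO and 17.6, 18.8 and 21.6 CPM in WT, with a log2 fold change of -0.28 (edgeR adjusted p = 0.999949). Fcer1g, the signalling chain of the IgE receptor and of activating Fc gamma receptors, stood at 548, 545 and 558 CPM in KO and 589, 597 and 650 CPM in WT, with -0.15 (edgeR adjusted p = 0.999949). These were the 2 genes of the list with an unadjusted p under 0.05, and neither overlapped between genotypes. Of all tested genes, 3.1% had an unadjusted p under 0.05 in edgeR and 8.65% did not overlap.

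Genes for the synthesis, transport and sensing of histamine and eicosanoids had 0 called of 13 tested, 7 above 0 and a median of 0.01. Ltc4s, the leukotriene C4 synthase, had a log2 fold change of -0.42, Ptgds, a prostaglandin D synthase, -1.07 and Hrh2, a histamine receptor, 0.42. Lineage transcription factors had 0 called of 19 tested, 12 below 0 and a median of -0.02, with Cebpb, Tal1 and Runx1 at -0.14, -0.13 and -0.07. In the eosinophil list DESeq2 called 1 gene, Ccr3, and in the mast cell, basophil, signalling, mediator and transcription factor lists DESeq2 and limma voom called 0. In edgeR 2 eosinophil genes and 2 signalling genes had an unadjusted p under 0.05, and 0 genes of the mast cell, basophil, mediator and transcription factor lists.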

How the data were processed

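Bulk RNA of BMDMs was sequenced in 6 libraries, for which the authors deposited raw counts per gene. The tools named are HISAT2, HTSeq and fastp with build mm10, per the submitters' processing notes. Their versions, the annotation, the strand setting and any gene filter were not given in the sources used here, so reads of close paralogs may be split or dropped. Groups came from the sample titles. No 2 libraries of a genotype agreed within sampling noise (chi-square of at least 11.8 per degree of freedom).

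The test was edgeR 4.0.16 (R 4.3.3) with TMM scaling, filterByExpr (minimum count 10), robust quasi-likelihood fits and Benjamini-Hochberg adjustment over 12605 genes, at a threshold of 0.05. Standard errors are the log2 fold change over the root of F. CPM use TMM-scaled sizes; centred log2 CPM use a prior count of 2. TPM use exon unions of GENCODE M21, and coordinates RefSeq GRCm38.p6, the assembly of mm10. Alternatives were other scalings, filters, DESeq2 1.42.0, limma 3.58.1 voom, a replicate block, leaving out libraries, and a BCV without shrinkage. The fit was tested on simulated data. Members and lists were chosen with earlier results of these data known. Genes named besides the members were up to 3 of smallest p per list, the 5 most alike, Trmt61a, less 1 gene not reported here, and a few chosen after their values were seen (Epx, Prg3, Il5ra, Lat, Grap2, Itga2b, Il4, Hbb-bs, Mpo, Elane, Adgre1 and Csf1r).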

Additional observations from a re-analysis of the deposited data

How the results depend on the processing

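None of the 6 tested markers was called in any alternative run, except Prg2 without KO 1 and WT 3 together, which gave 0.94 (edgeR adjusted p = 0.000916) and moved the number of markers called to 1, against 0 without any single library, and of genes called to 86. Those libraries were chosen for being lowest and highest for these markers. In the same setting the sign turned for Kit (0.32), Hdc (0.60) and Ctsg (0.0830), while Mitf (0.13), Zbtb46 (-0.38) and Cd79b (0.50) kept theirs, and the BCV was 0.141 for Kit, 0.125 for Hdc, 0.421 for Prss34 and 0.0849 for Prg2. With no shrinkage the BCV of Prss34 was 1.20. Leaving out single libraries gave log2 fold changes from -0.58 to 0.10 for Kit, -0.59 to 0.10 for Gata2, -0.25 to 0.33 for Hdc, -0.0173 to 0.68 for Prg2, 0.16 to 1.02 for Cpa3 and -2.33 to -0.99 for Prss34, and among other genes from -0.0691 to 0.0933 for Mitf, -0.33 to 0.0545 for Zbtb46, -0.45 to -0.0598 for Ctsg, and -0.00362 to 0.42 for Cd79b. The log2 Prg2 to Kit ratio difference stayed between 0.46 and 0.62 without single libraries and was 0.63 without KO 1 and WT 3, alternatives added after the data were seen. The number of genes called was 17 in DESeq2, 8 with the replicate block and from 3 to 5 without single libraries, against 4; the cause was not tested. Ccr3 was called in DESeq2 and with the block, Ear1, Ppbp and Msr1 without KO 1 and WT 3. Same-numbered KO and WT libraries did not all deviate together (correlations of 0.04, -0.19 and 0.36 for numbers 1, 2 and 3). KO 1 was closest to WT 2 (0.43), while KO 3 was closest to WT 3. The numbers were not taken to pair the samples, although these correlations cannot exclude a pairing. The block called no marker. Other scalings and filters changed no sign and no call of a marker. Depth limits Ms4a2, Cd200r3, Mcpt8, Gata2, Cpa3 and Prss34, at 49 counts or fewer per library.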

Other observations

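Megakaryocyte genes differed among themselves by library. Ppbp, a platelet chemokine gene, stood at 22.2, 37.5 and 29.4 CPM in KO and 16.5, 12.9 and 27.8 CPM in WT, and Itga2b, an integrin chain of platelets, at 12.3, 23.5 and 17.4 CPM in KO and 12.1, 11.7 and 19.6 CPM in WT. Like Prg2, both were low in KO 1, WT 1 and WT 2. Pf4, platelet factor 4, stood at 135, 133 and 139 CPM in KO and 125, 125 and 100 CPM in WT, higher in every KO library, by 0.21 on the log2 scale, which missed the threshold (edgeR adjusted p = 0.999949), and Gp9 and Ppbp, also platelet genes, had 1.03 and 0.64. Of 7 tested megakaryocyte and erythroid genes 0 were called, with 2 at an unadjusted p under 0.05 in edgeR. Over all tested genes 3.1% were at such a p, and 8.65% did not overlap between genotypes. Hbb-bs, an adult beta globin gene, had 3, 28 and 36 counts in KO and 29, 1 and 2 counts in WT.

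Of the remaining lists edgeR called 0 of 5 dendritic cell genes and 0 of 8 stromal genes, with 0 in each at an unadjusted p under 0.05, and DESeq2 and limma voom called 0. Of 5 tested lymphocyte genes edgeR called 0, with 2 above 0 and 3 below 0. Nkg7, a granule gene of cytotoxic lymphocytes, was the only 1 of these at an unadjusted p under 0.05. It stood at 0.504, 0.781 and 0.759 CPM in KO and 1.25, 1.53 and 1.14 CPM in WT. Its values did not overlap, and its log2 fold change was -0.94 (edgeR adjusted p = 0.999949). Over all tested genes 3.1% were at such an unadjusted p and 8.65% likewise had no overlap. The progenitor gene Sox4 was at 13.8, 17.0 and 15.4 CPM in KO and 22.1, 17.1 and 20.3 CPM in WT, with -0.36 (edgeR adjusted p = 0.999949).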
